A study of Homo sapiens with 8 samples.

Results

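The X-chromosomal gene CLCN5 carries a row of miRNA hairpins in its introns, and 10 mature arms cut from them were followed here in the multiple myeloma (MM) cell line INA-6 with and without inhibition of EZH2. The members were taken by name from the miRNAs that the array probes read: hsa-miR-532-5p, hsa-miR-532-3p, hsa-miR-188-5p, hsa-miR-500a-3p, hsa-miR-362-5p, hsa-miR-362-3p, hsa-miR-501-5p, hsa-miR-501-3p, hsa-miR-660-5p and hsa-miR-502-3p, 10 of 2549 human miRNAs on the array. The species prefix, hsa, is mostly left out from here on. The question was whether these arms moved together between DMSO and UNC1999.

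A miRNA is cut from a hairpin of a longer primary transcript, first in the nucleus by Drosha and then in the cytoplasm by Dicer. Either side of the hairpin, the 5p or the 3p arm, can be loaded into an Argonaute protein, where its seed, bases 2 to 8, pairs with target mRNAs. Hairpins inside an intron can be made from the transcript of the host gene, here that of a chloride and proton exchanger known for its role in the kidney, and hairpins that lie close together can share a primary transcript. Each arm is then processed and degraded at its own rate, so that arms of a shared transcript need not have equal levels.

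INA-6 is an established human MM line that grows in the presence of IL-6, which all cultures received. UNC1999 is a small-molecule inhibitor of EZH2, the enzyme of the polycomb complex PRC2 that methylates histone H3 at lysine 27, and DMSO is its solvent. Mature miRNAs were measured on 8 single-colour arrays, 4 of cells given DMSO and 4 of cells given 1 μM of UNC1999, both for 120 hours with medium and reagents renewed at 72 hours. The sample titles name DMSO as the control, whereas the treatment protocol in the labels names the inactive compound UNC2400, and the arrays were taken as DMSO controls. The titles call the replicates biological, and all 8 arrays lay on 1 slide.

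The scanner software detected between 369 and 500 human miRNAs per array, fewest on DMSO replicates 2 and 3. Of the 3 lymphoid miRNAs read as a check of the cell type, miR-150-5p and miR-142-3p were detected on all 8 arrays and miR-155-5p on UNC1999 replicates 1 and 4 alone. Within each group the arrays fell into alike pairs, DMSO replicates 1 and 4, DMSO replicates 2 and 3, UNC1999 replicates 1 and 3, and UNC1999 replicates 2 and 4. Correlations of log2 signal across miRNAs were 0.997 to 0.999 within these pairs and 0.987 to 0.991 between other arrays of a group. Whether the arrays of a pair came from separate cultures could not be settled, so results are also given with the mean of each pair as 1 sample, 2 against 2.

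By RefSeq (GRCh38.p14) the 8 hairpins lie on the plus strand over 11536 bases, all inside the span of CLCN5, in the order mir-532, mir-188, mir-500a, mir-362, mir-501, mir-500b, mir-660 and mir-502. The gap between mir-532 and mir-188 is 264 bases, and the widest gap, 4842 bases, separates mir-188 from mir-500a. RefSeq mature sequences matched 9 of the 10 members, all but miR-660-5p. The first pair below comes from the neighbouring hairpins mir-532 and mir-188, at chrX:50003167-50003188 and chrX:50003517-50003537. The next pair shows related 5p arms, and the last 3 are 3p arms of nearly the same sequence. The seed is in capitals.
miR-532-5p: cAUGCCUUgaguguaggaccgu
miR-188-5p: cAUCCCUUgcaugguggaggg
miR-362-5p: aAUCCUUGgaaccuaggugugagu
miR-501-5p: aAUCCUUUgucccugggugaga
miR-500a-3p: aUGCACCUgggcaaggauucug
miR-501-3p: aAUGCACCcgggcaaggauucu
miR-502-3p: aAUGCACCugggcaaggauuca

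Among the members with a sequence, miR-501-3p and miR-502-3p share their seed, AUGCACC, and no other pair does. The bodies of these arms are more alike still. miR-500a-3p, set 1 base off, was identical to miR-501-3p at 20 of 21 aligned positions and likewise to miR-502-3p at 20 of 21, and miR-501-3p matched miR-502-3p at 20 of 22. miR-500b-3p, which is on the array and is not a member, matched miR-501-3p at 18 of 19 aligned positions. Signals of these arms are therefore uncertain as to which arm was bound. The seed of miR-188-5p, AUCCCUU, occurred in 1 other of the 2248 human miRNAs on the array that had a sequence. Its longest run shared with any other was 10 bases, with miR-623, which was detected on 2 arrays.

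Of the 10 members, miR-188-5p was the only one detected on all 8 arrays. A further 4 were detected on some arrays and 5 on none, while 13.6% of all human miRNAs on the array were detected on all 8 and 77.7% on none. miR-660-5p was detected on 2 of 4 DMSO and 4 of 4 UNC1999 arrays, miR-532-5p on 2 and 3, miR-362-5p on DMSO replicate 4 alone, and miR-501-3p on UNC1999 replicate 2 alone. miR-362-3p, miR-500a-3p, miR-501-5p, miR-502-3p and miR-532-3p were not detected on any array, nor were the 6 other arms of the same hairpins, miR-188-3p, miR-500a-5p, miR-500b-5p, miR-500b-3p, miR-502-5p and miR-660-3p. At probe level, 5 of the 24 probes that read members had any spot well above background. They were both probes of miR-188-5p, with 77 and 79 such spots over the 8 arrays, 1 of miR-660-5p with 28, 1 of miR-532-5p with 8, and 1 of miR-362-5p with 1.

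**Figure D1:**
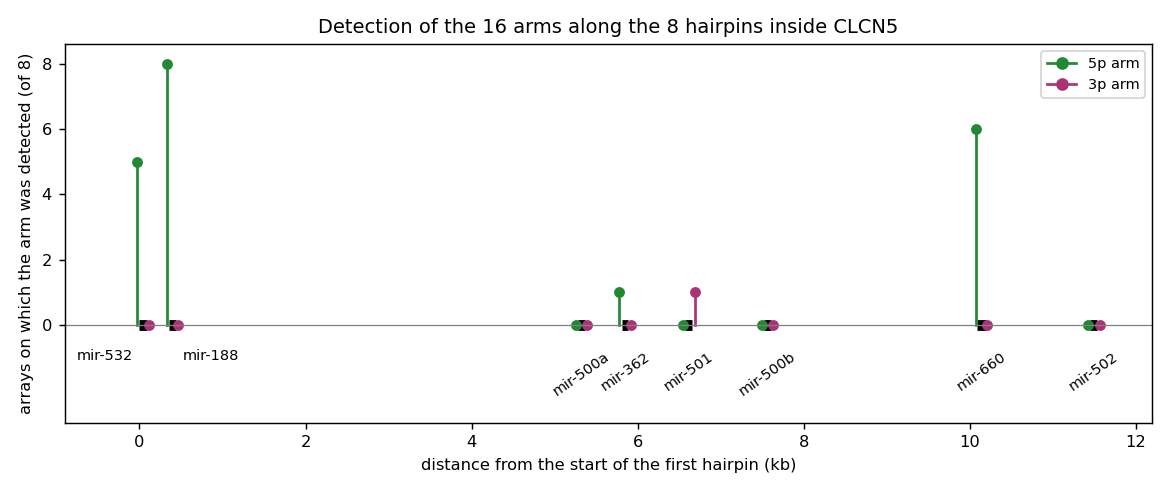
Arrays, of 8, on which each of 16 mature arms was detected (vertical axis), against the distance of its hairpin from the start of the first one in kb (horizontal axis), with 5p arms in green and 3p arms in purple set slightly apart. miR-188-5p reached 8 arrays, miR-660-5p 6 and miR-532-5p 5, and no other arm was detected on more than 1.

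A miRNA entered the test if no array of the DMSO group, or none of the UNC1999 group, missed it, which 17.9% of the human miRNAs on the array met, 456 in all. Of the members, 2 of 10 passed, miR-188-5p and miR-660-5p, the latter through the UNC1999 group alone. Called means an adjusted p (limma, Benjamini-Hochberg over all 456) no higher than 0.05 together with a change of 1.2-fold or more. By this rule 70.6% of all tested miRNAs were called, 36.0% higher and 34.6% lower after UNC1999. Among the members 1 was called higher, miR-188-5p, and 0 were called lower. Of the 2 tested members, the count called lower was also 0 at an unadjusted p under 0.05 in limma and by the paired test that the study's statistics section names, and 1 after normexp background correction, which called miR-660-5p. With 2 members tested, the cluster as a whole could not be read as rising or falling.

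hsa-miR-188-5p was higher after UNC1999. Its scaled signal, the intensity after division by a level set by each array's 75th percentile, was 342, 237, 265 and 325 on DMSO replicates 1 to 4 and 514, 398, 521 and 469 on UNC1999 replicates 1 to 4. The lowest UNC1999 array lay above the highest DMSO array, and within each group the alike pairs sat together, DMSO replicates 2 and 3 being the dimmer pair. The group means were 292 ± 49.5 and 475 ± 56.7 (SD, n = 4 each). On the log2 scale the means were 8.18 ± 0.25 and 8.88 ± 0.18, a difference of 0.71 (SE 0.14, 95% interval 0.39 to 1.03, 1.64-fold, limma adjusted p = 0.00189). An exact two-sided permutation test of the 4 against 4 arrays gave p = 0.0286, the smallest it can give. Groups that do not overlap were found for 65.4% of all tested miRNAs, and the rise ranked 55 of 456 from the highest. In RNA of whole cultures, more of a miRNA per cell and more cells that hold it cannot be told apart.

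**Figure D2:**
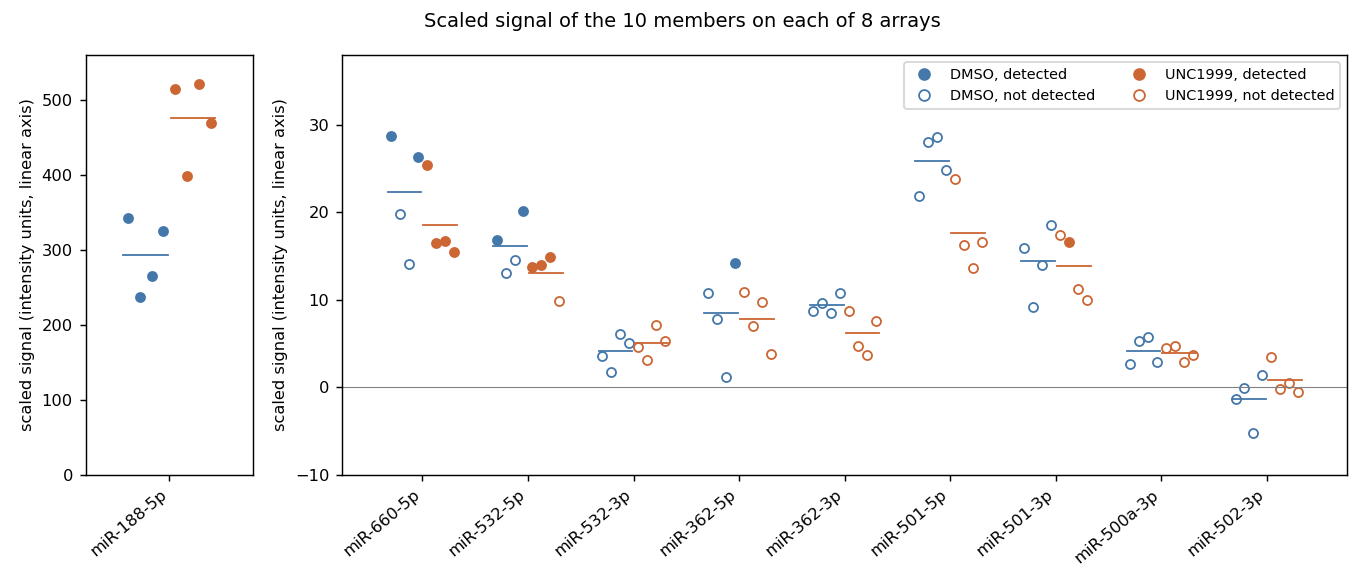
Scaled signal (intensity units, linear axes of different range) of miR-188-5p, left, and of the other 9 members, right, on 4 DMSO (blue) and 4 UNC1999 (orange) arrays, with replicates 1 to 4 from left to right. Filled points were detected, open points were not, and short lines are group means. The groups separated for miR-188-5p, whose lowest UNC1999 array was at 398, and overlapped for each of the other members.

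The difference in miR-188-5p did not rest on 1 probe or 1 array. Its 2 probes differed by 0.70 and 0.72 on the log2 scale, each with no overlap between the groups (exact two-sided permutation p = 0.0286 for each). With each alike pair averaged, the DMSO pair means were 8.38 and 7.97 and the UNC1999 pair means 9.02 and 8.75, and the limma adjusted p was 0.0386. Leaving out single arrays gave differences of 0.61 to 0.79. The array rows of the slide were unevenly shared, with 3 DMSO arrays and 1 UNC1999 array in row 1 and the reverse in row 2, and the difference was 0.66 within row 1 and 0.84 within row 2. The size depended on the scaling. It was 1.41 with no scaling between arrays and 1.52 with scaling to the labelling spike-ins, where the median of all tested miRNAs itself shifted by 0.67 and 0.78, against 0.01 in the scaling used. Relative to that median the difference was 0.73 and 0.75, against 0.70. Over all settings fitted this relative difference ran from 0.47 in the authors' processed values to 0.85 where detection on all 8 arrays was asked.

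**Figure D3:**
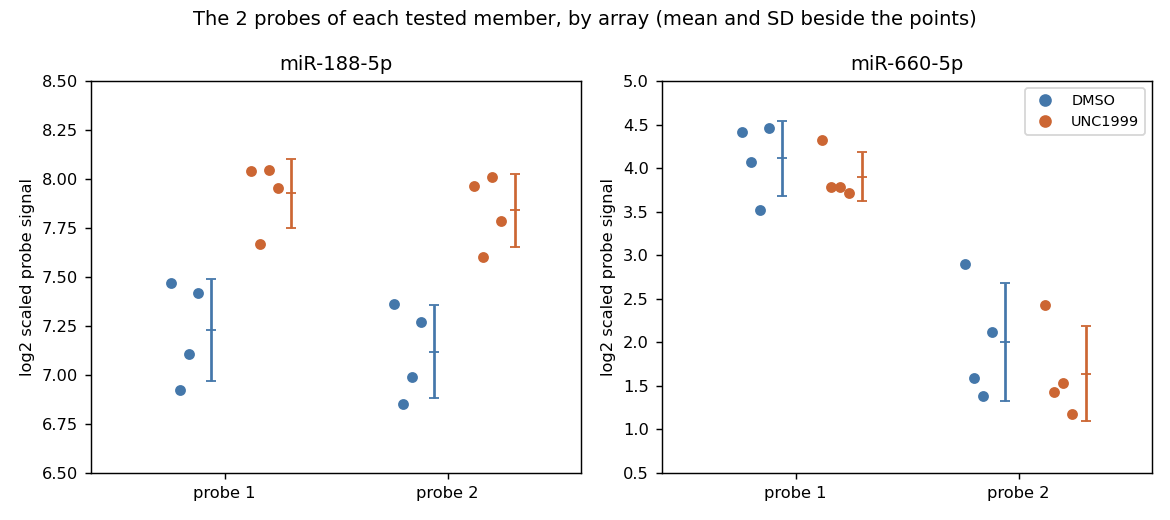
Log2 scaled signal of the 2 probes of miR-188-5p (left) and of miR-660-5p (right) on each DMSO (blue) and UNC1999 (orange) array, replicates 1 to 4 from left to right, with the group mean and SD beside the points and axes that do not start at 0. Both probes of miR-188-5p separated the groups, with differences of 0.70 and 0.72, and the groups overlapped for both probes of miR-660-5p.

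hsa-miR-660-5p, cut from the seventh hairpin, did not pass the test. Its scaled signal was 28.7, 19.8, 14.1 and 26.3 on DMSO replicates 1 to 4 and 25.4, 16.4, 16.7 and 15.4 on UNC1999 replicates 1 to 4. The groups overlapped, and the arrays on which it was not detected, DMSO replicates 2 and 3, were those whose lowest detected scaled signal of any human miRNA was highest, 17.6 and 23.1 against 6.21 to 10.2 on the other arrays. The log2 means were 4.42 ± 0.46 and 4.18 ± 0.33 (SD, n = 4 each), a difference of -0.25 (SE 0.23, 95% interval -0.76 to 0.27, limma adjusted p = 0.351), and the exact two-sided permutation p was 0.4. The interval holds both a fall and a small rise. Within slide row 1 the difference was -0.68 and within row 2 it was 0.43. The sign also turned under other settings, at 0.049 with quantile normalization, 0.36 without scaling, 0.50 with the spike-ins, 0.42 with the total of the scanner software, and 1.5 in the authors' processed values, where DMSO replicates 2 and 3 stood at the value given to miRNAs not detected. After normexp background correction it was -0.45 (limma adjusted p = 0.00933) and past the threshold, while the median of all tested miRNAs moved to -0.32, so that it lay at -0.13 relative to that median. This correction added an offset of 50 to each spot, while the brighter probe of miR-660-5p read at most 26.5 before scaling.

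**Figure D4:**
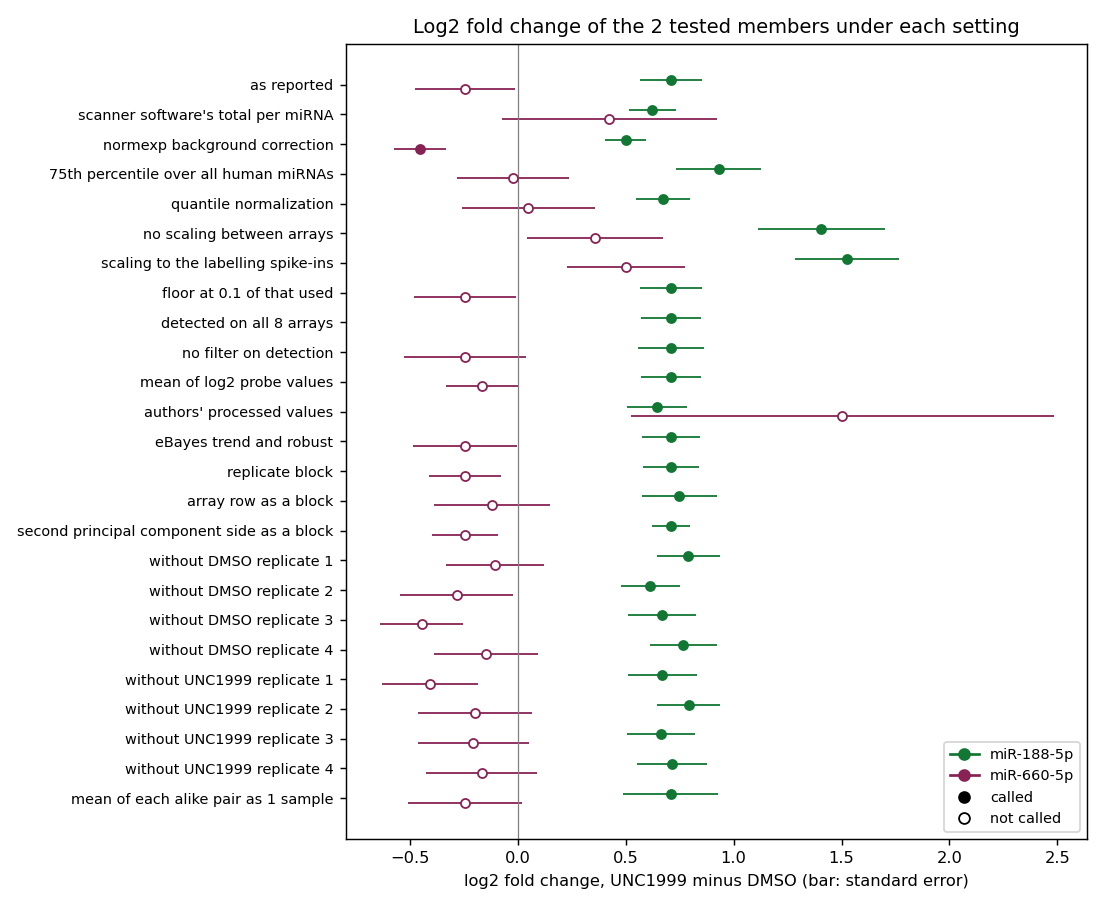
Log2 fold change, UNC1999 minus DMSO, of miR-188-5p (green) and miR-660-5p (purple) under each setting listed on the vertical axis, with bars for the standard error, filled points for called and open points for not called. miR-188-5p stayed between 0.50 and 1.52 and was called in each setting shown, while miR-660-5p lay between -0.45 and 1.5 and was called in 1, normexp background correction. It was not among the miRNAs tested where detection on all 8 arrays was asked.

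The ratio of the 2 tested members within an array is free of any factor common to that array, and is given as a description, since miR-660-5p was not detected on DMSO replicates 2 and 3. The log2 ratio of miR-188-5p to miR-660-5p was 3.57, 3.58, 4.23 and 3.63 on DMSO replicates 1 to 4 and 4.34, 4.60, 4.97 and 4.93 on UNC1999 replicates 1 to 4. All UNC1999 arrays lay above all DMSO arrays, by 0.95 between the group means of 3.75 ± 0.32 and 4.71 ± 0.30 (SD, n = 4 each), although DMSO replicate 3 and UNC1999 replicate 1 were only 0.11 apart. Of all pairs among the 456 tested miRNAs, 57.2% did not overlap in this way. The difference in this ratio was 0.20 with the scanner software's totals and -0.86 in the authors' processed values, so that its size and sign depended on the processing. The scanner software's total for miR-660-5p was 0.1 on DMSO replicates 2 and 3 and 1.92 to 3.75 on the other arrays.

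The remaining members were near the background of the arrays. hsa-miR-532-5p, whose hairpin neighbours mir-188, had a scaled signal of 16.8, 13.1, 14.5 and 20.1 on DMSO replicates 1 to 4 and 13.7, 14.0, 14.8 and 9.85 on UNC1999 replicates 1 to 4. The groups overlapped, with means of 16.1 ± 3.07 and 13.1 ± 2.22 (SD, n = 4 each), and neither group had it detected on all of its arrays. Before scaling, miR-532-5p read 15.4, 8.80, 8.30 and 21.7 on DMSO replicates 1 to 4. On UNC1999 replicates 1 to 4 it then read 18.2, 19.1, 20.9 and 10.2, and the mean was not lower. Its 3p arm stayed between 1.68 and 7.12. miR-362-5p ranged from 1.18 to 14.1 with its highest value on the array where it was detected, and miR-362-3p from 3.62 to 10.8. miR-501-3p ranged from 9.18 to 18.5, miR-500a-3p from 2.68 to 5.69, and miR-502-3p from -5.20 to 3.43, values below 0 being spots dimmer than the background subtracted from them. miR-501-5p, the sum of 4 probes, was at 21.8, 28.0, 28.5 and 24.8 on DMSO replicates 1 to 4 and at 23.8, 16.3, 13.6 and 16.6 on UNC1999 replicates 1 to 4. Its mean was lower after UNC1999, 17.6 ± 4.35 against 25.8 ± 3.11 (SD, n = 4 each), with groups that overlapped, and none of its probes had a spot well above background on any array. Taken singly, a probe of miR-501-5p and a probe of miR-362-3p did separate the groups in scaled signal, both lower after UNC1999. The log2 differences were -1.58 and -0.55 (exact two-sided permutation p = 0.0286 for each, not adjusted for the number of probes). The other probes of miR-501-5p differed by -0.04, -0.25 and -0.39, with overlap. Before scaling both probes overlapped. UNC1999 replicate 1 at 6.15 lay above DMSO replicate 2 at 5.72 for miR-501-5p. For miR-362-3p, UNC1999 replicate 1 at 9.05 lay above DMSO replicate 3 at 3.99. The probe of miR-362-3p also had no spot well above background. For scale, the negative control spots of an array had means of 1.17 to 2.88 and SDs of 3.35 to 3.68 before scaling.

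No fold per miRNA is given for these 8 members, since neither group had them detected on all of its arrays. When all 2549 human miRNAs were fitted without a detection filter, limma called miR-188-5p (adjusted p = 0.0471) and none of the other 9 members, against 2.79% of all miRNAs called higher and 4.86% lower. Of these 2549 miRNAs, 1683 lay at the floor of 8.98 on all 8 arrays and could not be called. Among them were miR-500a-3p, miR-502-3p and miR-532-3p, so for these the lack of a call was fixed beforehand. Both shares are likewise taken over many miRNAs that could not be called. The smallest limma adjusted p among the other 9 members was 0.157, of miR-501-5p, which was lower at an unadjusted limma p of 0.0227. That fall was in scaled signal and was not seen before scaling. The ratio of 5p to 3p arm was planned for mir-362, mir-501 and mir-532 and was not computed, because no arm of these hairpins passed the detection filter.

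Other clusters hosted by a gene could be followed further on these arrays. Of the 12 arms of the miR-17-92 cluster, 8 were tested and all 8 were called lower, with log2 differences of -1.05 to -0.70, while without scaling between arrays and with scaling to the spike-ins 0 were called and the differences ran from -0.36 to -0.00028 and from -0.24 to 0.12. Of the 6 arms of the miR-106b-25 cluster, which lies in an intron of MCM7, 3 were tested and all 3 were called lower, between -0.55 and -0.43, while without scaling and with the spike-ins 0 were called and the 3 turned positive, at 0.15 to 0.27 and 0.27 to 0.38. Calls of this cluster were also lost, 0 of 3, with the percentile taken over all human miRNAs and with alike pairs averaged, and were 2 of 3 with normexp. Relative to the median of all tested miRNAs, the highest arm of miR-17-92 lay at -0.67 and -0.66 and that of miR-106b-25 at -0.41 and -0.39 without scaling and with the spike-ins, while with normexp they lay at -0.15 and 0.09, the latter with its sign turned. The 5th and 95th percentiles of all tested miRNAs were -0.98 and 0.88. In the scaling used, the difference of miR-188-5p, 0.71, was of the opposite sign to those of the tested arms of both clusters, and a range over arms could not be given for the CLCN5 hairpins beyond 0.71 and -0.25.

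The profile of miR-188-5p over the 8 arrays was also set beside those of the 454 tested miRNAs outside the locus. Likeness was the root mean square difference of log2 signals, each miRNA centred on its own mean. The closest 5 were miR-4417 (0.057), miR-1225-5p (0.064), miR-520b (0.070), miR-6786-5p (0.077) and miR-6784-5p (0.087). Their own log2 differences were 0.60, 0.66, 0.74, 0.72 and 0.67, values close to 0.71 by the way these miRNAs were chosen.

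The share of guanine moved with the response over the array as a whole. miR-188-5p holds 38.1% guanine, the highest share among the 9 members with a sequence, the others lying between 9.09% and 31.8%. Across the 395 tested miRNAs with a sequence, the share of guanine and the log2 difference had a Spearman correlation of 0.61 and a Pearson correlation of 0.60, given as a description, since these miRNAs share the same 8 arrays and scaling. For guanine and cytosine together the correlations were weaker, at 0.377 (Spearman) and 0.376 (Pearson). Of the 212 miRNAs with at least as much guanine as miR-188-5p, 116 were called higher and 29 lower, with a median log2 difference of 0.39, against -0.48 for those with less. The median share of guanine was 52.4% for miRNAs called higher and 26.7% for those called lower, so miR-188-5p lay between the 2 medians. Of the 5 miRNAs with the most similar profiles, 3 had a sequence, with 59.1% to 66.7% guanine. They were chosen by likeness to a rising profile, and guanine share went with a rise over the array, so these shares add no separate support. The part of base composition in the difference of miR-188-5p was not tested.

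**Figure D5:**
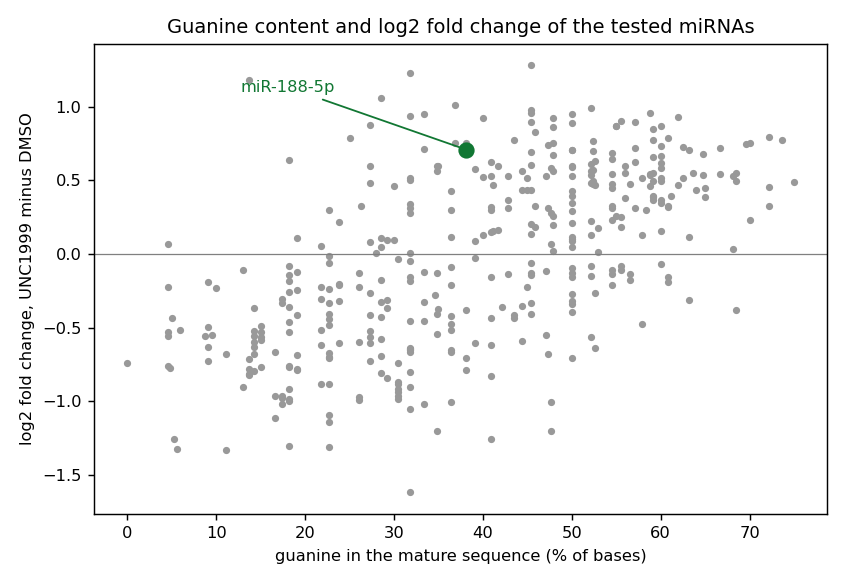
Log2 fold change, UNC1999 minus DMSO (vertical axis), against the percentage of guanine in the mature sequence (horizontal axis) for 395 tested miRNAs, with miR-188-5p in green. The points tend to rise from left to right, and miR-188-5p, at 38.1% guanine and 0.71, lies above the middle of the cloud.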

How the data were processed

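Total RNA was hybridized by the authors to 1-colour Agilent miRNA arrays (SurePrint G3 Human, Release 21.0). Per the file headers, Feature Extraction 10.7.3.1 made the deposited spot intensity values, background-subtracted and not normalized between arrays, with detection calls and outlier marks, and the grid names the build hg19. The authors also deposited log2 values made with GeneSpring, which were used as an alternative; floor and normalization of these are not given in the sources used here.

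Spot intensities were averaged per probe without outlier spots (1392 to 2292 of 53144 per array) and summed per miRNA. Each array was scaled to its 75th percentile over the 346 human miRNAs detected on all 8 arrays, values below 8.98 were set to that floor before the log2 step. The floor makes fold changes near it too small. For signals near background the sign could also depend on the scaling, as for miR-660-5p and miR-501-5p. The 456 miRNAs detected on all 4 arrays of a group were fitted with group as the sole term (limma 3.58.1, R 4.3.3). Single values were compared with exact permutation tests. On simulated data for DMSO against UNC1999, 91.5% of 200 changed miRNAs among 456 were recovered and 5.18% of calls were false. In the data 322 of 456 were called, so these rates need not hold for these arrays. Precision is limited by how many arrays there are, and p-values measure the spread between these arrays, which may be technical.

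The members, lists and tests were chosen with earlier results of these data known. Named miRNAs are the 10 members, the 6 other arms of their hairpins and the 5 tested miRNAs with the profile most like that of the brightest member detected on all 8 arrays; miR-623, miR-150-5p, miR-142-3p and miR-155-5p are named beside checks. Alternatives were the signal per miRNA, background correction, scaling, floor, filter, probe summary, variance model, blocks, thresholds, test, the authors' values and leaving out each array; averaging alike pairs was added after seeing the data. Normexp was run on median spot and background intensities with an offset of 50. RefSeq sequences come from the table of GRCh38.p14. mRNA arrays, qPCR and ChIP were not analysed here.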

Additional observations from a re-analysis of the deposited data

Results flagged for a closer look

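Of 22 groups of 4 arrays examined for members and their ratio, 2 held an array far from the other 3, where chance gives about 1.1. miR-660-5p on UNC1999 replicate 1 had a log2 scaled signal of 4.67, the other UNC1999 arrays lying between 3.95 and 4.06. The log2 ratio of miR-188-5p to miR-660-5p on DMSO replicate 3 was 4.23, against 3.57 to 3.63 on the other DMSO arrays, and miR-660-5p was not detected on that array.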

How the results depend on the processing

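miR-188-5p was called higher under all 24 alternatives fitted, with log2 differences of 0.50 (normexp) to 1.52 (spike-ins) and limma adjusted p from 7.4e-05 to 0.0471. miR-660-5p was not called in the reported values and kept its sign and side of the threshold under 17 of 23 alternatives. It turned to 0.42 with the scanner software's total, 0.049 with quantile normalization, 0.36 without scaling, 0.50 with spike-ins and 1.5 in the authors' values, and was called lower with normexp (-0.45), which makes 1 member called lower in place of 0; the cause was not tested. The change in their log2 ratio, 0.95, was 0.20 with the scanner software's total, 0.62 with quantile normalization and -0.86 in the authors' values. Leaving out single arrays gave 0.61 to 0.79 for miR-188-5p, -0.45 to -0.10 for miR-660-5p, 0.87 to 1.11 for the ratio, 1 member called higher, 0 lower, and 292 to 326 calls over all miRNAs. Calls over all miRNAs, 322 as reported, were 195 with no detection filter, 175 at a fold of at least 1.5, 152 with the paired t-test and 156 with alike pairs averaged, where fewer samples enter. The share of calls that were higher was 50.9%, against 17.8% with normexp, 68.6% with the percentile over all human miRNAs, 98.3% without scaling, 97.7% with spike-ins and 36.4% with no filter. With the replicate number as a block there were 308 calls, a difference of 0.71 for miR-188-5p, -0.25 for miR-660-5p, 1 member called higher and 0 lower. Same-numbered arrays deviated together with correlations of 0.18, 0.27, -0.42 and -0.39, so the numbers were not taken to pair the samples. Signals near background limit the other 8 members, whose changes could not be measured at these signals.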
